A study of Mus musculus with 18 samples.

Results

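Serpins are protease inhibitors, and 8 of their genes are described here in BV2 cells, an immortalized mouse microglial line, given oxyhemoglobin, the oxygen-carrying protein released from red cells after bleeding. The 8 were taken by symbol (Serpinb1a, Serpina3g, Serpina3f, Serpinb8, Serpinb6a, Serpinb6b, Serpinb2 and Serpinb9) from the 55487 genes of the deposited tables, which hold 61 other symbols that begin with Serpin. They were selected on their levels and changes in these same libraries, seen in an earlier look at the data, so their values and tests below are a description and not independent support for anything. The cells carry 1 of 2 line labels, BAK1-KD or NC, which the labels do not spell out further, and how the KD line was made is not stated. Each line was sampled as control (no oxyhemoglobin) and after 12 h and 24 h of oxyhemoglobin at a labelled 10 mM, a high figure for a protein, so its unit is uncertain. The groups are thus KD control, KD 12 h, KD 24 h, NC control, NC 12 h and NC 24 h, with 3 libraries each and 18 in all. The labels list no untreated cells for 12 h or 24 h, so hours in culture and treatment cannot be told apart. Whether the libraries of a group came from separate cultures is not stated, and each p-value reflects only how these libraries vary, which may be technical.

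A serpin offers an exposed loop to its protease, is cut there, and traps the enzyme in a covalent complex, so each inhibitor molecule is used up. Most clade A serpins are secreted, while clade B serpins mostly act inside cells, where they can neutralize proteases that leak from granules or lysosomes. Macrophages and microglia hold many such proteases, and several clade B serpins are known from myeloid cells. The mouse clusters of Serpina3, Serpinb1, Serpinb6 and Serpinb9 have expanded by gene duplication relative to the human ones.

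The libraries held 4361313 to 6008810 counts, at which 3 counts correspond to 0.457 to 0.76 CPM (counts scaled to the library total after TMM scaling). Bak1, the gene named in the KD label, had 39 counts over the 9 KD-labelled libraries and 25 over the 9 NC libraries, so it was not lower in those labelled KD, and every line comparison below compares labels. In each group the library numbered 2 had the lowest score on the second principal component, which held 14.7% of the variance. All 12 microglial markers of a list had counts, P2ry12 with 8 and Aif1 with 43 over 18 libraries. The summed level of that list in KD cells was 842 to 896 CPM in control, 856 to 992 at 12 h and 657 to 755 at 24 h. In NC cells it was 616 to 726 CPM in control, 686 to 753 at 12 h and 562 to 618 at 24 h, and its part in the results below was not tested. In bulk RNA, fewer cells of a type and less RNA per cell cannot be told apart.

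Of the 8 serpins, 7 had at least 1 count and 4 (Serpinb1a, Serpina3g, Serpinb8 and Serpinb6a) passed the filter on low counts and were tested among 15996 genes. The filter keeps a gene that is high in any group, so the 4 are not all the members. Changes are log2 fold changes from edgeR's quasi-likelihood test, with p-values adjusted over all tested genes by Benjamini-Hochberg and a threshold of 0.05. The test gives no standard error, so the ± value is an approximation. It is the size of the log2 change divided by the square root of the test's F statistic. In brief, Serpinb1a fell with oxyhemoglobin and was lower in KD-labelled cells, Serpina3g rose at 12 h, Serpinb8 fell in both lines, and no comparison of Serpinb6a passed.

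To compare levels between genes, TPM (counts scaled by gene length and library total) was recomputed on merged exon lengths, which counts each exon base once. On that scale Serpinb1a averaged 101 ± 28.0 TPM in KD control, 34.1 ± 6.13 in KD 12 h and 13.6 ± 1.56 in KD 24 h (SD, n = 3 each). The NC means were 345 ± 48.5 TPM in control, 157 ± 27.0 at 12 h and 154 ± 11.9 at 24 h. Serpinb1a had the highest mean of the 8 in every group. It made up 67.1 to 80.1% of the summed serpin TPM in KD control libraries, 33.4 to 40.2% in KD 12 h and 21.4 to 26.4% in KD 24 h. The shares in NC libraries were 88.3 to 89.8% in control, 66.9 to 73.5% at 12 h and 72.8 to 74.0% at 24 h. Next in order came Serpinb6a, at 8.11 ± 1.26 TPM in KD control and 6.92 ± 0.516 TPM in NC control, and then Serpinb8, at 3.63 ± 1.12 TPM in KD control and 3.65 ± 1.81 TPM in NC control. At 12 h in NC cells Serpina3g stood above Serpinb6a, with 14.2 ± 2.02 TPM against 7.70 ± 0.860 TPM. At 12 h in KD cells these neighbours overlapped, Serpina3g at 5.34 to 11.2 TPM and Serpinb6a at 7.84 to 12.9 TPM.

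**Figure D1:**
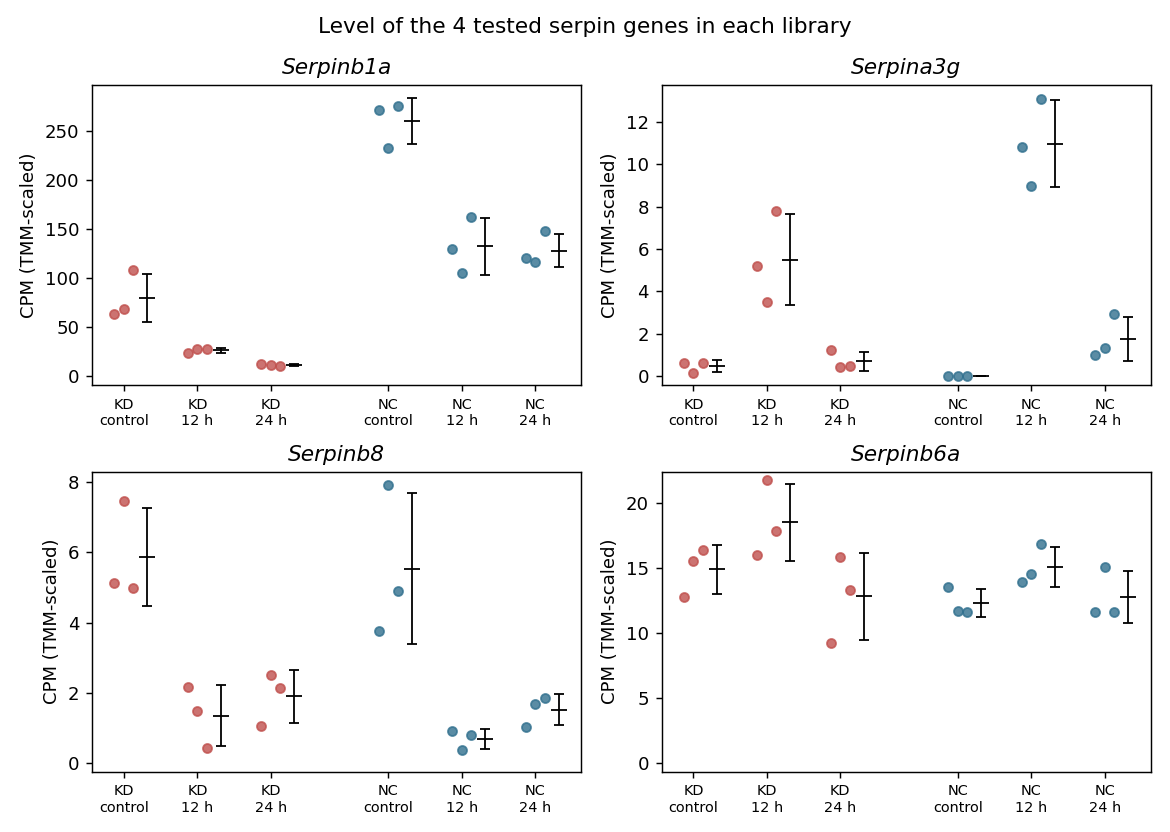
Level of the 4 tested serpins in each library, in CPM (y axis), for the 6 groups (x axis), with KD groups to the left of NC groups; points are libraries and bars are group means. In Serpinb1a all KD libraries lie below all NC libraries at each time, and in Serpina3g the 12 h libraries stand highest in both lines.

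Serpinb1a (ENSMUSG00000044734, chr13:32842092-32851185, minus strand, GRCm38) is a mouse counterpart of human SERPINB1, an inhibitor of neutrophil elastase, cathepsin G and proteinase 3. Its level was 63.2, 68.5 and 108 CPM in the 3 KD control libraries, 23.5, 27.7 and 28.0 CPM in KD 12 h, and 13, 11.1 and 11 CPM in KD 24 h. These groups did not overlap, and each time was lower than the one before it. NC libraries held 272, 233 and 275 CPM in control, 130, 105 and 163 CPM at 12 h, and 121, 116 and 148 CPM at 24 h. Here both treated groups lay below every control library and overlapped each other.

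In KD cells Serpinb1a fell by 1.59 ± 0.20 at 12 h (adjusted p = 4.92e-06) and by 2.77 ± 0.22 at 24 h (adjusted p = 6.54e-09) against control. KD 24 h also lay below KD 12 h, with a change of -1.17 ± 0.22 (adjusted p = 0.00179). In NC cells it fell by 0.97 ± 0.19 at 12 h (adjusted p = 0.0011) and by 1.02 ± 0.19 at 24 h (adjusted p = 0.0012). Between NC 24 h and NC 12 h the difference was -0.05 ± 0.19 (adjusted p = 0.963).

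Serpinb1a was lower in KD-labelled cells at each time, by a log2 difference of -1.70 ± 0.20 in control (adjusted p = 1.24e-05), -2.33 ± 0.21 at 12 h (adjusted p = 1.69e-06) and -3.45 ± 0.22 at 24 h (adjusted p = 2.84e-09). By p-value it ranked 1 of 15996 genes at 12 h, at 24 h and in the average over times, and 16 in control. The difference between the lines in the 24 h change was -1.75 ± 0.29 (adjusted p = 0.0186), and that in the 12 h change was -0.62 ± 0.28 (adjusted p = 0.846). The 24 h call rested on several single libraries: without KD 24 h 1, 2 or 3 its adjusted p was 0.0506, 0.0515 or 0.0829, without NC control 3 it was 0.0522, and without NC 24 h 3 it was 0.069. It was also lost, with -1.80 (adjusted p = 0.116), without all libraries numbered 2, and with -1.29 ± 0.27 (adjusted p = 0.093) when the Serpinb1 paralogs were summed. All other calls of Serpinb1a named here held in each of the alternatives run.

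Of the neutrophil markers, 3 of 9 (Ctsg, Ltf and S100a9) were at 0 in all libraries. The list summed to 2.35 to 3.75 CPM in KD control and 4.62 to 7.15 CPM in NC control, so it was lower in KD control as Serpinb1a was. At 24 h, where the line difference of Serpinb1a was larger, it summed to 3.15 to 4.76 CPM in KD and 2.28 to 3.13 CPM in NC cells, and its part in the result was not tested. The targets of human SERPINB1 named above, which may not be all of them, were scarce. Ctsg (cathepsin G) was at 0 in all 18 libraries, Elane (neutrophil elastase) had 23 counts and Prtn3 (proteinase 3) had 50. Of the Prtn3 counts, 3 were in KD control and 28 in NC control. The genes most like Serpinb1a over the 18 libraries were Pdcd6ip (Pearson r = 0.932), Ticam2 (r = 0.916) and Bsn (r = 0.911) among 10811 candidates with a mean of at least 5 CPM. These r values describe the libraries, which share group, depth and scaling.

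**Figure D2:**
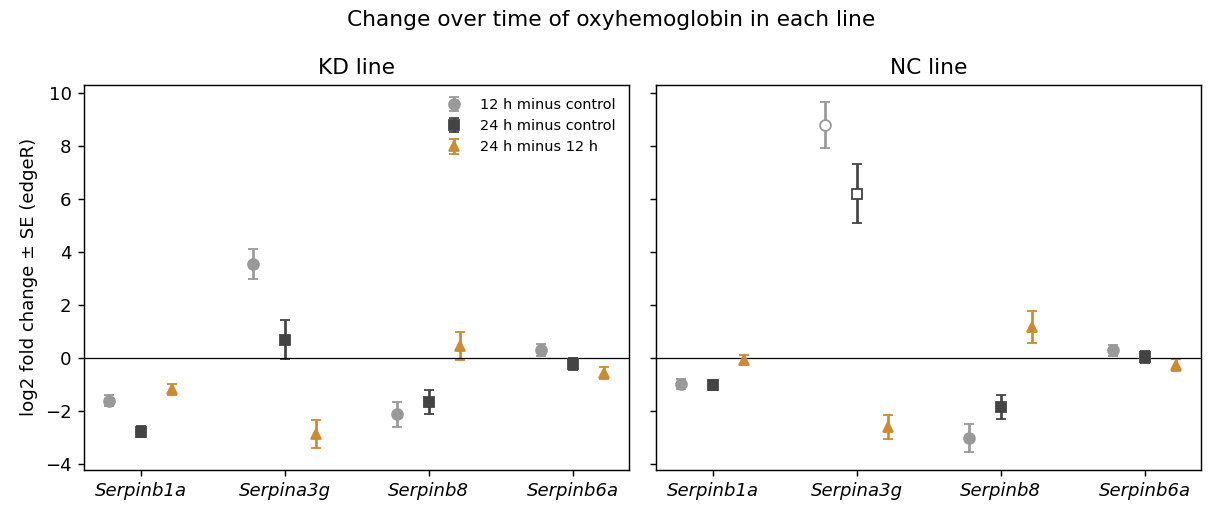
Log2 change ± standard error of the 4 tested serpins in KD and NC cells. Shown are 12 h and 24 h against control, and 24 h against 12 h. Open symbols mark fits against the NC control group with 0 counts, whose size depends on the prior count. Against control, Serpinb1a and Serpinb8 lie below 0 at both times in both lines, and Serpina3g lies highest at 12 h. At 24 h against 12 h, Serpinb8 lies above 0 in both lines and passed in neither.

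Serpina3g (ENSMUSG00000041481, chr12:104236245-104241939, plus strand, GRCm38) encodes a mouse clade A serpin that acts inside cells and inhibits lysosomal cysteine cathepsins. Serpina3f (ENSMUSG00000066363, chr12:104214544-104221129, plus strand) is its neighbour and close paralog. The pair is shown by promoter because the paralogs are alike in sequence while their counts were not. Windows run from 250 bases before to 50 after the RefSeq start (GRCm38.p6), and capitals mark matches, on either strand, to AP-1 (TGANTCA), GAS (TTCNNNGAA) or the NF-kB consensus. Serpina3g is at chr12:104235897-104236196 and Serpina3f, whose first of 2 listed starts is shown, at chr12:104214294-104214593, both on the plus strand.
Serpina3g: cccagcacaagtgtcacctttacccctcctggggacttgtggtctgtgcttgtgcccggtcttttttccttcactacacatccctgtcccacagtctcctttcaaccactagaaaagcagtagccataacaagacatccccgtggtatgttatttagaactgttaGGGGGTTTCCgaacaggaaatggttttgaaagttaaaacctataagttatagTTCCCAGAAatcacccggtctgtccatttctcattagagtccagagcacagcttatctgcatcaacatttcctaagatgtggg
Serpina3f: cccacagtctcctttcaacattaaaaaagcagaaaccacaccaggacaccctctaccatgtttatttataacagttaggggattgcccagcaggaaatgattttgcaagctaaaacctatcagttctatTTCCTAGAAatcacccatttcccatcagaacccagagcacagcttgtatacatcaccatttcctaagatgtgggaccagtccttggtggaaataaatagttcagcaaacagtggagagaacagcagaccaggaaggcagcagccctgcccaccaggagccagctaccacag
Aligned locally, the windows were identical at 169 of 214 positions (79.0%), with 33 mismatches and 12 gap positions. Both hold a GAS match, TTCCCAGAA at position 218 of the Serpina3g window and TTCCTAGAA at position 130 of the Serpina3f window. GAS matches are not particular to this pair, as windows of Serpinb2 and Serpinb6a hold them too. Of this pair, Serpina3g alone holds an NF-kB match, which starts at position 166. Serpina3f alone holds matches to C/EBP (TTGCNNAA), which are not marked and start at positions 101 and 229. Whether either difference bears on the counts was not tested. Of 32851 mouse promoter windows of the same length, 8.3% held a GAS match, 8.46% an NF-kB match, 10.8% a C/EBP match and 7.81% an AP-1 match. Each is thus common, and a match shows letters and not binding.

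Serpina3g had 3, 1 and 3 counts in the KD control libraries, 24, 19 and 37 in KD 12 h, and 7, 2 and 2 in KD 24 h. NC cells gave 0 counts in all 3 control libraries, 48, 50 and 66 at 12 h, and 4, 7 and 16 at 24 h. In both lines every 12 h library lay above every control and every 24 h library. Serpina3f had 0 counts in all 18 libraries, which allows a level of up to 0.457 to 0.76 CPM per library. Stretches of 50 bases that other genes share made up 15.5% of those in Serpina3g and 10.6% of those in Serpina3f, so reads of the cluster may be split or lost, depending on how multiply placed reads were counted.

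In KD cells Serpina3g rose by 3.55 ± 0.57 at 12 h against control (adjusted p = 0.00012), and its 24 h value of 0.70 ± 0.73 did not pass (adjusted p = 0.661). In NC cells it rose at 12 h (adjusted p = 4.22e-07) and at 24 h (adjusted p = 9.26e-04), in edgeR fits against 0 control counts. With 3 counts over the control group as a floor, the ratio was 57.2 at 12 h and 9.65 at 24 h. The exact 95% lower limits of the ratios of count rates were 46 at 12 h and 7.325 at 24 h. These limits cover counting error only. The level at 24 h was below that at 12 h, by -2.85 ± 0.53 in KD cells (adjusted p = 0.00208) and -2.58 ± 0.45 in NC cells (adjusted p = 0.00211). With all 14 Serpina3 symbols summed, which gave 349 counts of which 289 were from Serpina3g, the 12 h change was 3.14 ± 0.58 in KD cells (adjusted p = 0.000432) and 3.18 ± 0.52 in NC cells (adjusted p = 0.000165). On that sum the NC 24 h change was 0.96 ± 0.58 and no longer passed (adjusted p = 0.404).

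Between the lines Serpina3g had 7 counts in KD control and 0 in NC control (adjusted p = 0.148). At 12 h it averaged 5.49 ± 2.15 CPM in KD cells and 11 ± 2.05 CPM in NC cells (SD, n = 3 each), and all 3 KD libraries were below all 3 NC libraries. The difference of -0.998 ± 0.40 did not pass (adjusted p = 0.281). With libraries of the same number paired it was -1.04 ± 0.34 and passed (adjusted p = 0.0427, and 0.0427 to 0.656 over the alternatives). At 24 h the difference was -1.26 ± 0.59 (adjusted p = 0.392). The genes most like Serpina3g over the 18 libraries were Tnfrsf1b, a receptor of TNF (r = 0.951), Arl1 (r = 0.928) and Cdc42ep2 (r = 0.927).

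Serpinb8 (ENSMUSG00000026315, chr1:107590006-107610484, plus strand, GRCm38) is the mouse counterpart of human SERPINB8, which inhibits the proprotein convertase furin. Its promoter window, chr1:107589756-107590055 on the plus strand, is shown because it holds 2 copies of the AP-1 letters TGAGTCA, marked by capitals, at positions 228 and 264, on either side of the start.
Serpinb8: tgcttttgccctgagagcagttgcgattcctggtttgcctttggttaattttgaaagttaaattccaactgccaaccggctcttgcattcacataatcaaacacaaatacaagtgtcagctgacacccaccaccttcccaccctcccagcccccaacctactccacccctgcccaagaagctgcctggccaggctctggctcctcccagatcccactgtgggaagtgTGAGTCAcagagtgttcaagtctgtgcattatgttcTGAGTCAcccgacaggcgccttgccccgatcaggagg
An AP-1 match was also found in the Serpinb2 windows, as TGAATCA, and in no other of the 7 members with a window. Serpinb8 was at 5.12, 7.47 and 4.99 CPM in KD control, 2.16, 1.48 and 0.42 CPM in KD 12 h, and 1.05, 2.51 and 2.14 CPM in KD 24 h. The NC libraries were at 3.76, 7.92 and 4.90 CPM in control, 0.90, 0.359 and 0.793 CPM at 12 h, and 1.01, 1.69 and 1.84 CPM at 24 h. In both lines no treated library reached the lowest control library. In CPM, 12 h and 24 h overlapped in KD cells and not in NC cells. NC 12 h 1 and NC 24 h 1 had 4 counts each, and in deposited TPM they overlapped (0.164 and 0.159). The NC difference of 24 h against 12 h did not pass (1.18 ± 0.60, adjusted p = 0.407). The CPM levels rest on 97, 20 and 27 counts for KD control, 12 h and 24 h, and on 90, 10 and 23 counts for NC control, 12 h and 24 h.

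Serpinb8 fell in KD cells by 2.11 ± 0.47 at 12 h (adjusted p = 0.00282) and by 1.65 ± 0.45 at 24 h (adjusted p = 0.0212) against control. In NC cells it fell by 3.01 ± 0.53 at 12 h (adjusted p = 0.000343) and by 1.83 ± 0.47 at 24 h (adjusted p = 0.015). The 24 h calls rested on single libraries: the KD call was lost without KD control 2 (adjusted p = 0.0969) or KD 24 h 1 (adjusted p = 0.124), and the NC call without NC control 2 (adjusted p = 0.0991) or NC 24 h 1 (adjusted p = 0.0608). The libraries numbered 2 were the highest of both control groups, and without all 6 libraries of that number the 24 h change was -1.70 in KD cells (adjusted p = 0.111) and -1.56 in NC cells (adjusted p = 0.181). No difference between the lines passed, with 0.08 ± 0.40 in control (adjusted p = 0.968), 0.99 ± 0.61 at 12 h (adjusted p = 0.547) and 0.27 ± 0.52 at 24 h (adjusted p = 0.905) by edgeR, and 0 of the 3 had an unadjusted p under 0.05 or passed by DESeq2. Over the 18 libraries its level ran opposite to that of Serpina3g (r = -0.83), and the genes most like it were Nos1 (r = 0.925), Zfp704 (r = 0.902) and Abca9 (r = 0.902).

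**Figure D3:**
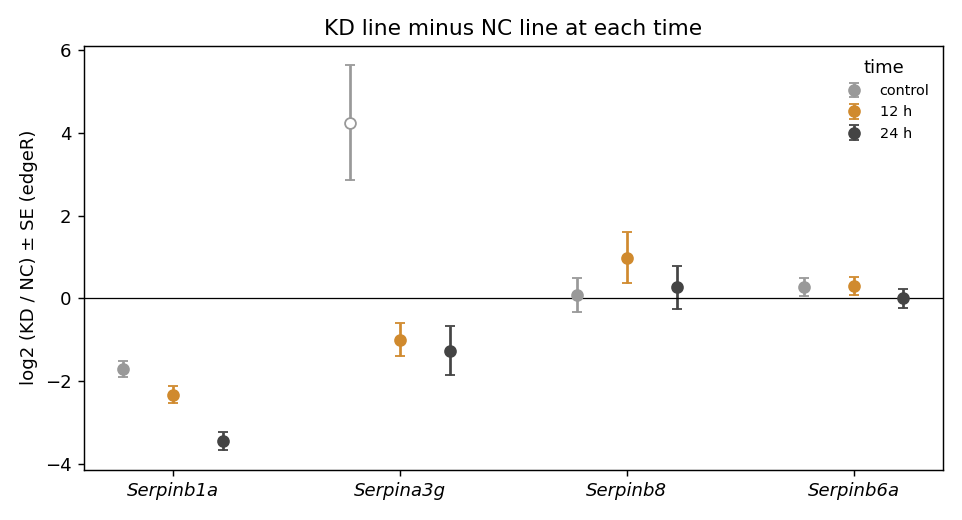
Log2 difference ± standard error between KD and NC cells for the 4 tested serpins in control, at 12 h and at 24 h; the open symbol marks the fit of Serpina3g against an NC control group with 0 counts. Serpinb1a lies below 0 at each time and farthest at 24 h, while the other 3 passed in no line comparison unless libraries were paired by number.

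Serpinb6a (ENSMUSG00000060147, chr13:33917918-34002794, minus strand, GRCm38) is the mouse counterpart of human SERPINB6, an inhibitor of cathepsin G. It stood at 12.8, 15.6 and 16.4 CPM in KD control, 16.0, 21.8 and 17.9 CPM in KD 12 h, and 9.28, 15.9 and 13.3 CPM in KD 24 h. The NC libraries stood at 13.6, 11.7 and 11.6 CPM in control, 14.0, 14.5 and 16.8 CPM at 12 h, and 11.7, 15.1 and 11.6 CPM at 24 h. Control and treated libraries overlapped in KD cells at both times and in NC cells at 24 h, and the NC 12 h libraries were just above the NC controls. None of its 12 comparisons passed by edgeR or by DESeq2. Only 1 had an unadjusted p under 0.05, KD 24 h against KD 12 h (-0.54 ± 0.22, adjusted p = 0.242). Other genes on the opposite strand (1110046J04Rik, Nqo2 and Ripk1) overlap 29.3% of its exon bases, and the sources used here do not give the strand setting of the counting, so their reads cannot be told apart there. The genes most like Serpinb6a over the 18 libraries, Trappc2l (r = 0.788), Cyb5r4 (r = 0.784) and Ap4e1 (r = 0.768), followed it less closely than those named for the other 3 tested serpins.

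The remaining 4 serpins were too sparse to test. Serpinb2 (ENSMUSG00000062345, chr1:107511423-107535478, plus strand), known as plasminogen activator inhibitor type 2 and induced in activated macrophages, had 0 counts in all 6 control libraries. It had 1, 0 and 1 counts in KD 12 h, 3, 1 and 2 in KD 24 h, 0, 1 and 0 in NC 12 h, and 1, 4 and 0 in NC 24 h. That makes 6 counts in KD 24 h against 0 in KD control and 5 in NC 24 h against 0 in NC control, 4 of the 5 in 1 library. The exact 95% lower limits of the ratios of count rates are 1.29 in KD cells and 0.983 in NC cells, so the NC interval includes no change, and they cover counting error only. Part of this gene, 12.4% of its exon bases, overlaps Serpinb10 on the same strand.

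Serpinb6b (ENSMUSG00000042842, chr13:32965209-32979067, plus strand), a paralog of Serpinb6a, had 3, 6 and 4 counts in KD control, 3, 2 and 2 in KD 12 h, and 4, 4 and 2 in KD 24 h. The NC control libraries had 1, 3 and 0 counts, those of NC 12 h had 0, 6 and 2, and those of NC 24 h had 1, 0 and 9. Its groups overlapped at every time in both lines. Serpinb9 (ENSMUSG00000045827, chr13:33003250-33017957, plus strand), which protects cells from granzyme B, had 0 counts in all 9 KD libraries and in NC control. It had 1, 0 and 3 counts in NC 12 h and 1, 1 and 2 in NC 24 h. With so few counts, absence in KD cells was not distinguishable from a low level at this depth.

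**Figure D4:**
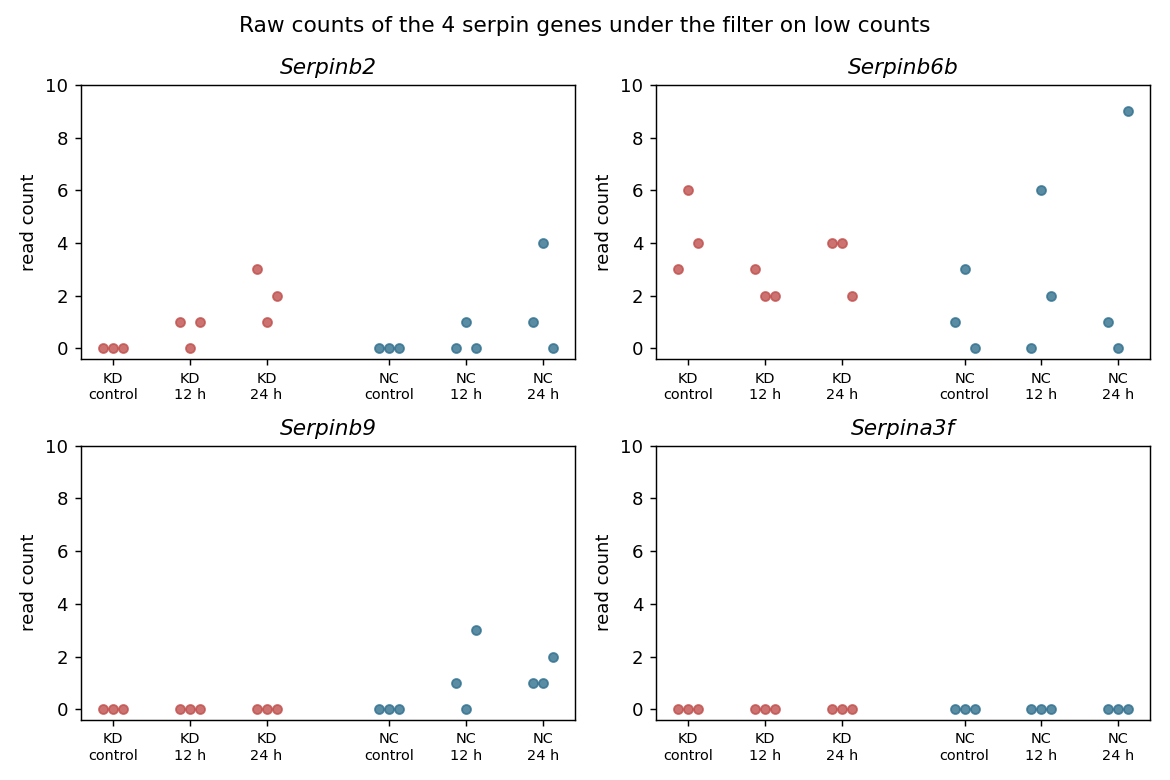
Read counts per library (y axis) of the 4 untested serpins in the 6 groups (x axis), KD groups to the left of NC groups; each point is a library. Serpina3f is at 0 throughout, and no library of the 4 genes reaches 10 counts.

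Read against all tested genes, 1 of the 4 tested serpins rose and 2 fell in KD 12 h, where 7.93% of the 15996 genes rose and 8.06% fell. In KD 24 h, 2 fell where 4.09% of genes did, and 2 were lower than at 12 h where 1.46% were. In NC 12 h, 1 rose and 2 fell, with 6.69% of genes rising and 5.55% falling. In NC 24 h, 1 rose and 2 fell, with 4.66% of genes rising and 2.91% falling, and 1 was lower than at 12 h, with 1.13% of genes lower. Between the lines, 1 serpin was lower in KD cells in control (1.30% of genes), at 12 h (1.10%), at 24 h (0.925%) and in the average over times (5.98%). In the line difference of the 24 h change 1, Serpinb1a, was called in the negative direction. It was the only such gene of the 15996 (0.00625%), so that share is the serpin itself. In the line difference of the 12 h change none of the 4 was called by edgeR (0.0750% of genes in either direction). Of those 4, 2 had an unadjusted p under 0.05 there and 0 passed by DESeq2. With the replicate block Serpina3g passed there (adjusted p = 0.0323), in a fit against NC control at 0 counts. Since the 8 were chosen with such values known, nothing is read from these counts.

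Of 60 other serpin symbols, 24 had a count and 6 were tested. In KD cells 1 rose at 12 h (median change of the 6, 0.35), where 7.93% of all tested genes rose. At 24 h 1 rose and 1 fell (median 0.45), where 5.50% of genes rose and 4.09% fell. In NC cells 1 rose at 12 h (median -0.0432), where 6.69% of genes rose, and 1 at 24 h (median 0.41), where 4.66% did. The median over all tested genes lay between -0.0112 and 0.00386 in each of the 12 comparisons. The gene that rose each time was Serpinb9b. Serpinb9b, a paralog of Serpinb9, averaged 3.59 ± 0.908 CPM in KD control, 12.4 ± 1.37 at 12 h and 15.1 ± 3.79 at 24 h, and 5.19 ± 2.24 CPM in NC control, 19.0 ± 2.07 at 12 h and 17.9 ± 6.76 at 24 h. It thus rose where Serpinb9 was near 0, by 1.77 ± 0.33 (adjusted p = 0.000437) and 2.04 ± 0.32 (adjusted p = 0.000126) in KD cells and by 1.88 ± 0.31 (adjusted p = 0.000183) and 1.80 ± 0.31 (adjusted p = 0.000499) in NC cells, at 12 h and 24 h.

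Serpinb1c, a paralog of Serpinb1a, fell by 2.14 ± 0.66 at 24 h in KD cells (adjusted p = 0.0428). That call was lost without any KD control library, KD 24 h 2 or 3, NC control 3 or NC 12 h 3 (adjusted p 0.05004 to 0.176). Serpini1, neuroserpin, was higher in KD cells in the average over times by 0.86 ± 0.27 (adjusted p = 0.0446), a call lost without any of 13 of the 18 libraries (adjusted p 0.0571 to 0.129). Those that kept it when left out were KD control 3, KD 12 h 3, KD 24 h 2, NC control 2 and NC 12 h 2. Of 4 neuron markers 3 were at 0, and the fourth, Tubb3, was at 4.12 to 5.83 CPM in KD control and 0.825 to 3.06 CPM in NC control. Tubb3 was also higher in KD cells in the average over times, by 2.14 ± 0.27 (adjusted p = 1.12e-05), and its part in the Serpini1 difference was not tested.

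**Figure D5:**
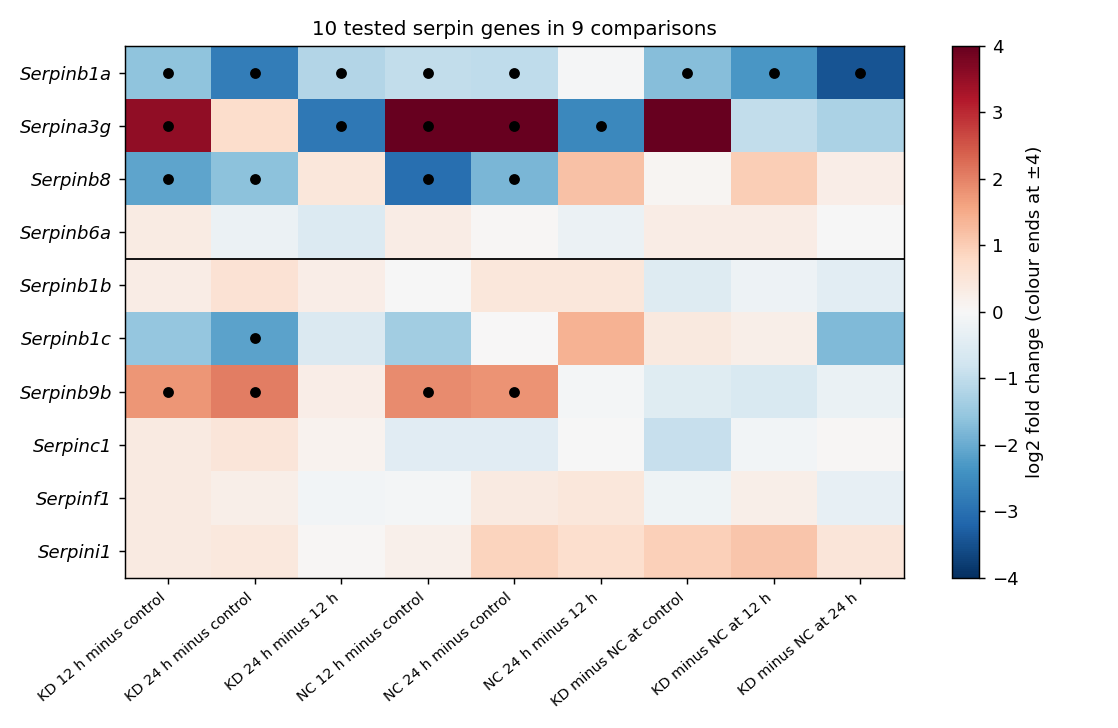
Log2 changes of 10 tested serpins (rows), the 4 described first on top, in 9 comparisons (columns), with dots where the adjusted p was under 0.05; the colour scale ends at -4 and 4. The colours of Serpina3g against NC control, at 0 counts, depend on the prior count. Serpinb9b rose with oxyhemoglobin in both lines, Serpinb1a and Serpinb8 fell, and Serpinb1a alone has dots in the columns of the lines at single times.

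A list of 34 proteases and their partners that serpins act on, or that release them, had 22 members with a count and 18 tested. In KD cells 6 rose and 1 fell at 12 h (median change 0.36), where 7.93% of all tested genes rose and 8.06% fell, and 4 rose at 24 h (median 0.26), where 5.50% did. In NC cells 2 rose and 1 fell at 12 h (median 0.30), where 6.69% of genes rose and 5.55% fell, and 3 rose at 24 h (median 0.30), where 4.66% did. Urokinase is a target of Serpinb2. Plaur, the urokinase receptor, rose in KD cells by 1.42 ± 0.19 at 12 h (adjusted p = 8.63e-06) and 1.28 ± 0.19 at 24 h (adjusted p = 4.72e-05). In NC cells Plaur rose by 1.16 ± 0.19 (adjusted p = 0.000167) and 0.83 ± 0.19 (adjusted p = 0.00728) at 12 h and 24 h, the 24 h call being lost in the 3 limma fits on TPM (adjusted p up to 0.176).

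Plau, urokinase itself, averaged 121 ± 15.5 CPM in KD control, 193 ± 19.7 at 12 h and 319 ± 39.8 at 24 h, and 242 ± 9.31 CPM in NC control, 174 ± 18 at 12 h and 292 ± 4.70 at 24 h. It rose in KD cells by 0.68 ± 0.15 at 12 h (adjusted p = 0.00192) and 1.40 ± 0.15 at 24 h (adjusted p = 5.64e-07). In NC cells it fell by 0.48 ± 0.14 at 12 h (adjusted p = 0.0305), a call lost without NC control 1 or NC 12 h 1 or 2 (adjusted p 0.0529 to 0.0896). It was higher at 24 h than at 12 h in KD cells (0.73 ± 0.15, adjusted p = 0.0033) and in NC cells (0.75 ± 0.15, adjusted p = 0.00433), and the KD call was lost in the 3 limma fits (adjusted p up to 0.0865). In control it was lower in KD than in NC cells by -1.01 ± 0.15 (adjusted p = 0.00023).

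Furin, the target of human SERPINB8, rose in KD cells by 1.02 ± 0.27 at 12 h (adjusted p = 0.0116) and 1.14 ± 0.27 at 24 h (adjusted p = 0.00805), where Serpinb8 fell. The 12 h call was lost without KD control 2 (adjusted p = 0.058) or KD 12 h 3 (adjusted p = 0.0553). In NC cells Furin averaged 126 ± 28.0 CPM in control, 179 ± 44.7 at 12 h and 174 ± 43.6 at 24 h and passed at neither time. St14, matriptase, a membrane serine protease, rose in KD cells by 1.12 ± 0.22 at 12 h (adjusted p = 0.000647) and 0.98 ± 0.22 at 24 h (adjusted p = 0.00395). Casp4, an inflammatory caspase, rose at 12 h in KD cells by 1.22 ± 0.39 (adjusted p = 0.036) and in NC cells by 1.32 ± 0.41 (adjusted p = 0.0385). In NC cells F2r, the thrombin receptor, rose by 1.16 ± 0.27 at 24 h (adjusted p = 0.00681). The KD call of Casp4 was lost without KD control 1 or 3 or KD 12 h 2 or 3 (adjusted p 0.0818 to 0.211), the NC call without NC control 1 or 3, NC 12 h 1 or 2, or NC 24 h 3 (adjusted p 0.0533 to 0.18), and the F2r call without NC 24 h 3 (adjusted p = 0.0651). Ctsc, which activates granule serine proteases, rose in NC 24 h by 0.48 ± 0.15 (adjusted p = 0.0416), a call lost without any of 15 of the 18 libraries (adjusted p 0.0528 to 0.245), all but KD 12 h 1, NC 12 h 2 and NC 24 h 1. The other calls in KD 12 h were Ctsd, cathepsin D, which rose by 0.73 ± 0.21 (adjusted p = 0.0207), and Lgmn, legumain, which fell by 1.09 ± 0.37 (adjusted p = 0.0464). These calls and that of Casp4 in KD 12 h lie outside the rule for named genes and were named after their values were seen. The Ctsd call was lost without KD control 2 or KD 12 h 1 or 3 (adjusted p 0.0605 to 0.116). That of Lgmn was lost without any KD control library, KD 12 h 2 or 3, KD 24 h 1, NC control 3, NC 12 h 1 or NC 24 h 3 (adjusted p 0.0516 to 0.192).

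Between the lines Ctsl, cathepsin L, was lower in KD control by -1.13 ± 0.24 (adjusted p = 0.0118), a call lost without KD control 1 or 3 or NC control 2 or 3 (adjusted p 0.057 to 0.0586), and lower in the average over times by -0.78 ± 0.14 (adjusted p = 0.000683). Ctsd was higher in KD 24 h by 0.89 ± 0.22 (adjusted p = 0.0438), and in the average by 0.48 ± 0.13 (adjusted p = 0.0159). The 24 h call of Ctsd was lost without any KD 24 h or NC 24 h library, KD control 1, KD 12 h 1 or 3, or NC 12 h 1 (adjusted p 0.051 to 0.158). Plaur was higher in KD cells in the average by 0.42 ± 0.11 (adjusted p = 0.0142). No protease passed between the lines at 12 h by edgeR, where only 256 of the 15996 tested genes were called. Nothing about proteases is read from that 0. Of the 18, 4 had an unadjusted p under 0.05, for which no share over all genes was computed, and 0 passed by DESeq2. Of the 34, 12 were at 0 in every library, among them Gzma and Gzmb, the granzymes, Ctss, cathepsin S, and Plg, plasminogen.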

How the data were processed

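Read counts and TPM per gene were deposited for 18 libraries of total RNA, made with a tagmentation kit per the labels' protocols. The submitters' processing notes name GRCm38, HISAT2 2.2.0, featureCounts, bcl2fastq and DESeq2, and the sources used here do not give the strand setting. The deposited counts are raw whole numbers. The deposited TPM equal counts over a deposited gene length, to within 4.89e-05. In 98.6% of the 55227 IDs found in GENCODE M21 that length is the exon length summed over all transcripts, which lowers TPM for genes with many transcripts, so levels between genes use TPM recomputed on merged exon lengths.

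Groups and replicate numbers came from the sample titles. Counts were tested with edgeR 4.0.16 (R 4.3.3): TMM factors, filterByExpr with a minimum count of 10, 1 mean per group, all 18 libraries in one robust quasi-likelihood fit, 12 comparisons, and Benjamini-Hochberg adjustment over the 15996 genes kept, which held 99.65% of the counts. Library totals were 4361313 to 6008810 counts, and exact intervals and floors allow for counting error alone. Libraries of a group all differed beyond counting noise, with a chi-square of 4.5 to 17.3 for each degree of freedom. Each was counted as a sample, but such spread does not show that they came from separate cultures.

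The 8 serpins and the gene lists were chosen with earlier results of these data known. Named were all 8, Bak1, up to 4 genes per list and comparison with the lowest adjusted p past the threshold (3 more were added after their values were seen), and the 3 genes most like each tested serpin by Pearson r of log2 CPM (prior count 2). The settings tried instead were upper-quartile or RLE factors, no filter, DESeq2 1.42.0, a replicate block, compared groups only, each library left out, the libraries numbered 2 left out together, limma 3.58.1 on log2(TPM + 1) or log2(TPM + 0.1) with a mean TPM filter of 1 or none, and paralogs summed. Same-numbered libraries deviated together (r above 0.1 for every pair) when times were compared inside a line (6 comparisons) and between lines at 12 h; what a number stands for is not stated. The lowest r was 0.0703 between lines in control and 0.0946 at 24 h. The main tests took no pairing in any of the 12 comparisons, also where same-numbered libraries deviated together. The replicate block was run only as an alternative. Promoter windows came from RefSeq (GRCm38.p6), with entries for 7 of the 8; motifs of AP-1, GAS, ISRE, ARE, C/EBP, PU.1 and NF-kB were searched on both strands. The results of 1 other serpin are not reported here.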

Additional observations from a re-analysis of the deposited data

Results flagged for a closer look

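The change of Serpinb1a at 24 h differed between the lines: -2.77 ± 0.22 in KD cells and -1.02 ± 0.19 in NC cells on the log2 scale, a difference of -1.75 ± 0.29 (edgeR's quasi-likelihood test, adjusted p = 0.0186). It was 1 of 5 genes called among 15996 in that comparison. The call was lost without KD 24 h 1, 2 or 3, NC control 3 or NC 24 h 3 (adjusted p 0.0506 to 0.0829), without the libraries numbered 2, in the 3 limma fits and with paralogs summed (adjusted p up to 0.116 over all settings). The changes of Plau differed between the lines at 12 h, by 1.16 ± 0.21 (adjusted p = 0.019), and at 24 h, by 1.13 ± 0.21 (adjusted p = 0.0447). The Plau call at 12 h was lost without KD control 1 or 2, KD 12 h 1 or 3, or NC 12 h 1 (adjusted p 0.0568 to 0.0878), with the compared groups only (adjusted p = 0.0753) and without the libraries numbered 2 (adjusted p = 0.112). That at 24 h was lost without any of 11 of the 18 libraries (adjusted p 0.0634 to 0.145), all but KD control 3, KD 12 h 2, KD 24 h 2, NC control 2, NC 12 h 2, NC 12 h 3 and NC 24 h 1. It was also lost with the compared groups only (adjusted p = 0.0769), without the libraries numbered 2 (adjusted p = 0.141) and with paralogs summed (adjusted p = 0.0554).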

How the results depend on the processing

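Of the called results of the 4 tested serpins, those of Serpinb1a against control and between lines, of Serpina3g at 12 h and of Serpinb8 at 12 h kept their call in every setting that fitted them. Serpinb8 had no value in the 2 limma fits with the TPM filter, where the count of called serpins at 12 h was 2 in place of 3 in both lines. With paralogs summed the count was 4 at 12 h in both lines and 3 at 24 h in KD cells. There the sum of the Serpinb9 paralogs was called, of whose 1102 counts 8 were from Serpinb9. At 24 h in KD cells the count of 2 called serpins became 1 without the libraries numbered 2 and in the 3 limma fits, and ran from 1 to 2 with 1 library left out. At 24 h in NC cells the 3 became 1 with limma on log2(TPM + 1), with or without the filter, and ran from 2 to 3 with 1 library left out. The 1 called for the line difference in the 24 h change became 0 without the libraries numbered 2, in the 3 limma fits and with paralogs summed, and ran from 0 to 1 with 1 library left out. With the replicate block the counts were 2 for the lines in control, 2 at 12 h and 1 for the line difference in the 12 h change, each by adding Serpina3g, whose values were 4.23, -1.04 and -5.27 (adjusted p 0.0432, 0.0427 and 0.0323), the first and the last fitted against 0 counts. The block changed no other call of the members. Over all genes the block called 1.8 to 38.6 times as many (193 to 4600), DESeq2 1.05 to 7.6 times, and the limma fit on log2(TPM + 0.1) 0.402 to 2 times, shifting the median of all genes by -0.227 to 0.146.

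Signs that turned belonged to values that did not pass. Serpinb6a in NC 24 h was -0.0399 with limma on log2(TPM + 1) in both fits, -0.0777 on log2(TPM + 0.1), -0.13 without the libraries numbered 2, and -0.11 to 0.11 with 1 library left out. Serpinb6a between lines at 24 h was 0.00834 with RLE, 0.0208 without filter, 0.0519 with limma on log2(TPM + 1) in both fits, 0.0844 on log2(TPM + 0.1), 0.00182 with paralogs summed, 0.00664 with DESeq2 and -0.19 to 0.21 with 1 library left out. Its line difference in the 12 h change was -0.0496 with paralogs summed, -0.0655 without the libraries numbered 2, and -0.11 to 0.11 with 1 left out. Serpina3g between lines in control was -0.81 with paralogs summed, and in the average over times -0.86 with paralogs summed, -0.26 with limma on log2(TPM + 1) in both fits and -0.10 on log2(TPM + 0.1). Serpinb8 in the 24 h line difference was -0.14 without the libraries numbered 2. With 1 library left out, the ranges were -0.17 to 0.51 for that, -0.14 to 0.45 for Serpinb8 between lines in control, -0.18 to 0.12 for Serpinb1a in NC 24 h against 12 h, and -0.0016 to 1.00 for Serpina3g in KD 24 h. The cause was not tested. Of the other genes named, these lost a call in settings beside those with 1 library left out, with the highest adjusted p over all settings: Casp4 in KD 12 h (0.211) and NC 12 h (0.279), Ctsd in KD 12 h (0.116) and between lines at 24 h (0.158), Lgmn (0.192), Ctsc (0.562), Ctsl in control (0.183) and in the average (0.0583), F2r (0.068), St14 in KD 24 h (0.0585), Plau in NC 12 h (0.0925), Serpinb1c (0.351) and Serpini1 (0.159). The 4 serpins under the filter rest on 0 to 52 counts each, which limits them, and gave no value in most settings.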

Other observations

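Serpinb10, which overlaps Serpinb2 on the same strand and was named here after its values were seen, did not pass the filter on low counts. It had 0, 0 and 0 counts in KD control, 4, 0 and 2 in KD 12 h, and 27, 19 and 5 in KD 24 h. The NC control libraries had 1, 1 and 0 counts, those of NC 12 h had 0, 3 and 0, and those of NC 24 h had 3, 10 and 6. Against control, with 3 counts over the control group as a floor, the ratio in KD 24 h was 18.6 (exact 95% lower limit 14.57). The ratio of count rates in NC 24 h was 10.2 (exact 95% interval 2.46 to 90.2).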
